A study of Mus musculus with 4 samples.

Results

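The cells described here are *Kit*-positive differentiating spermatogonia, selected on their own UMI counts from 2 droplet single-cell RNA libraries of mouse testis at postnatal day 8. A UMI (unique molecular identifier) stands for 1 captured RNA molecule. Barcodes with at least 8000 UMIs, at most 20% mitochondrial UMIs and at least 10 UMIs of the germ cell genes *Ddx4* and *Dazl* together were taken as germ cells, provided that *Col1a1*, *Col1a2*, *Col3a1* and *Dcn* (stroma) and *Cst12*, *Cst9*, *Rhox8*, *Amh* and *Aard* (Sertoli cells) each summed to under 0.3% of UMIs. Of these, cells with 2 or more UMIs of *Kit*, 0 of *Neurog3* and at most 2 of *Meioc* were kept. This gave 432 *Kit*-positive cells, 316 in control and 116 in Cnot3-cKO, of 1699 germ cells (1196 and 503) and of 17567 barcodes over the UMI minimum (8335 and 9232).

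The labels call the control genotype wild-type and the other Cnot3 KO. By the study's text, both carried floxed copies of *Cnot3* (Cnot3flox/flox), and both received 4-hydroxytamoxifen from postnatal day 1. The labels end the injections on day 1 or 2 for the control samples and on day 3 or 4 for the Cnot3-cKO samples, while the study's methods give a single schedule; if the labels hold, treatment length and genotype cannot be told apart. The Cnot3-cKO mice also carried Ddx4-creER, a tamoxifen-activated Cre recombinase driven by the germ cell gene *Ddx4*, so deletion was directed to germ cells and its completeness in any one cell is not measured here. Cells had been sorted for CD9 and THY1 before droplet capture, which bears on each share of cells given below. The labels name 2 samples per genotype, but both samples of a genotype stand merged in 1 matrix, so each genotype is 1 library, no test between genotypes is possible, and intervals (95%) cover counting error only.

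Spermatogonia begin as stem cells that depend on the growth factor GDNF, pass through *Neurog3*-expressing progenitors, and then commit to differentiation under retinoic acid. That step switches on *Kit*, the receptor tyrosine kinase for the Sertoli cell ligand KITL, and *Stra8*, a retinoic acid target needed later for meiotic entry. *Cnot3* encodes a subunit of the CCR4-NOT complex, which shortens the poly(A) tails of mRNAs and thereby starts their decay.

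The *Kit*-positive cells were deep. They held 14213433 UMIs in control and 5629450 in Cnot3-cKO, with medians of 44864 and 47142 UMIs and 6844.5 and 7206.5 genes per cell, against medians of 13179 and 12688 UMIs in Sertoli reference cells (*Ddx4* and *Dazl* at 0, Sertoli genes at least 1% of UMIs) of the same libraries. The median mitochondrial share was 9.64% in control and 9.56% in Cnot3-cKO. The upper depth bound that the study applied against doublets, the mean plus 2 SD of UMIs or of genes per cell, when computed over a library's barcodes here would remove 48.7% of the control and 83.6% of the Cnot3-cKO cells, so it was not applied here. The doublet caller Scrublet marked 20 control cells (6.33%) and 12 Cnot3-cKO cells (10.3%), which stayed in. The libraries shared 18 of the barcodes with at least 8000 UMIs, and none of the *Kit*-positive barcodes occurred among the cells of the other library. Free RNA, estimated from Sertoli genes against barcodes of at most 100 UMIs ("empty" barcodes), made up about 5.83% of UMIs in control and 5.78% in Cnot3-cKO *Kit*-positive cells, and estimated from stromal genes 2.28% and 2.94%. Both gene sets are capped by the rule. The Sertoli genes made up 0.179% of UMIs in a cluster of 26 cells, of which Scrublet marked 24, and at most 0.00923% in each other cluster. The Sertoli estimate is thus higher than the cells outside that cluster would give. Values with the empty profile subtracted use the Sertoli estimate. Of the UMIs of 6 macrophage genes (*C1qa*, *C1qb*, *C1qc*, *Pf4*, *Lyz2* and *Tyrobp*) in control *Kit*-positive cells, 98.3% lay in 3 cells, all 3 marked by Scrublet, while no Cnot3-cKO cell had 10 or more such UMIs.

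*Kit* chose the cells and *Stra8* was the marker that differed most between the genotypes, and the sequences upstream of their starts (RefSeq, GRCm38.p6, gene strand, ending at the base before the start) are shown because *Stra8* is a textbook target of retinoic acid receptors. Capitals mark AGGTCA, the core that nuclear receptors of this class bind, searched on both strands. The first lies at chr6:34920698-34920947 on the plus strand and the second at chr5:75574737-75574986 on the plus strand.
Stra8: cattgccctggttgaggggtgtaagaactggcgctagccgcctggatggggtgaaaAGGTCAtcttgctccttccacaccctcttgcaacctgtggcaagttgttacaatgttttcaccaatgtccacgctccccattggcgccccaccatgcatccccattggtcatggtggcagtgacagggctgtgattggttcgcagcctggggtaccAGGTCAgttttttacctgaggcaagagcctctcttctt
Kit: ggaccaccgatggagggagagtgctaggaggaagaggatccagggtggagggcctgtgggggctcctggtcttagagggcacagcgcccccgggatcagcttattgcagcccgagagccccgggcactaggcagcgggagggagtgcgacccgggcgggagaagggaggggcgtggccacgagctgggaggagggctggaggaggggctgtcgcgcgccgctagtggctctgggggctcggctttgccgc
The *Stra8* window held AGGTCA at 2 places, beginning 194 and 38 bases before the start, and the *Kit* window at none. Over 32851 mouse promoter windows of 250 bases, 14.0% held this motif at least once and 1.36% at 2 or more places. The letters alone do not show a bound site, and the GENCODE starts of both genes (34920163 for *Stra8*, 75574916 for *Kit*) lie before the RefSeq starts used here.

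*Kit* (ENSMUSG00000005672.12, chromosome 5, 75574916 to 75656722, plus strand, GRCm38) stood at 116 UMIs per 1000000 UMIs (CPM; 110 to 121) in control *Kit*-positive cells and 93.8 (86.0 to 102) in Cnot3-cKO. It was the gene that chose the cells, so its height here is a description. In the other germ cells *Kit* was at 2.79 and 4.81 CPM in stem-like cells (at least 2 UMIs of *Gfra1*, at most 1 of *Kit*, no *Neurog3*, at most 2 of *Meioc*), 31.4 and 43.1 in *Neurog3*-positive cells and 58.2 and 54.6 in *Meioc*-positive cells (no *Neurog3*, at least 3 UMIs of *Meioc*). Sertoli reference cells stood at 0.631 and 0.454 CPM.

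The other 4 markers of the label were present. *Dmrtb1* (chromosome 4, 107676290 to 107684230, minus strand), a DM-domain transcription factor of the mitosis-to-meiosis switch, stood at 59.3 and 51.7 CPM in control and Cnot3-cKO *Kit*-positive cells, against 4.19 and 2.75 in stem-like cells of the same libraries. *Pcsk1n*, an inhibitor of a prohormone convertase, stood at 51.4 and 33.2 CPM against 3.07 and 3.16. *Cited1*, a transcriptional coregulator, stood at 174 and 155 CPM against 16.5 and 22.7. Unlike the rest of the markers, *Cited1* was far higher in Sertoli reference cells, at 871 and 905 CPM, and in empty barcodes, at 264 and 357 CPM, so it does not separate these cells from Sertoli cells. Among the 4 markers other than *Kit*, each had at least 1 UMI in 57.0% of control cells against 39.7% in Cnot3-cKO, and 1 control and 4 Cnot3-cKO cells had none of them.

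**Figure D1:**
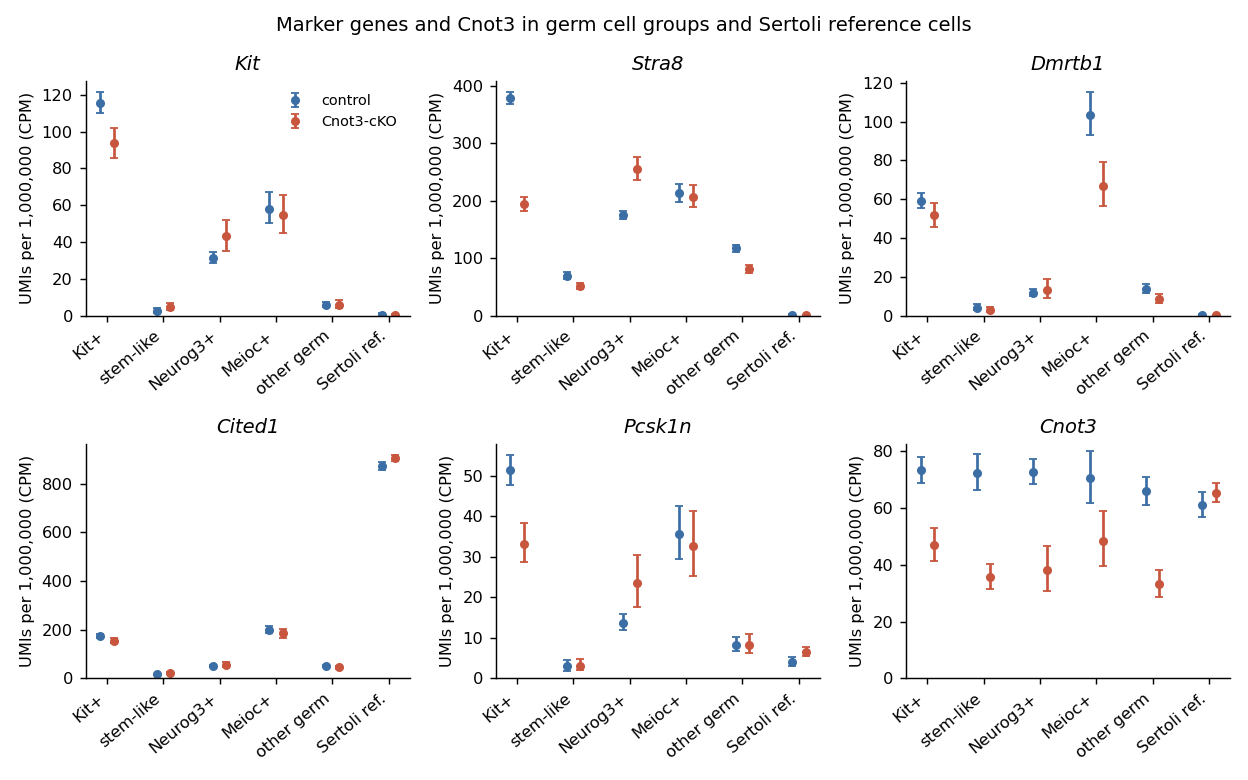
Level (UMIs per 1000000 UMIs, CPM) of the 5 marker genes and *Cnot3* in each germ cell group and in Sertoli reference cells, blue for control and red for Cnot3-cKO. Points are sums over all cells of a group in 1 library and bars are exact Poisson intervals; *Kit*, *Gfra1*, *Neurog3* and *Meioc* UMIs defined the groups. *Stra8* stood at 379 CPM in control against 194 in Cnot3-cKO *Kit*-positive cells, and *Cited1* was highest in Sertoli reference cells.

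After each cell was thinned to 8000 UMIs, *Stra8* had a UMI in 68.4% (62.9 to 73.4) of control cells and 55.2% (45.7 to 64.4) of Cnot3-cKO *Kit*-positive cells, and in 1.32% and 0.245% of Sertoli reference cells. Without thinning the shares were 93.04% and 82.8%. Thinned *Dmrtb1* was seen in 34.8% (29.6 to 40.3) and 26.7% (18.9 to 35.7) of cells, and in 0.110% of control Sertoli reference cells and 0 of 1634 in Cnot3-cKO, which allows a share of up to 0.184% (3 counts of the total). Thinned *Pcsk1n* was seen in 31.96% (26.9 to 37.4) and 16.4% (10.2 to 24.4) of cells, against 3.07% and 4.71% of Sertoli reference cells; unthinned shares were 79.1% and 55.2%. The thinned shares of *Dmrtb1* overlapped in their intervals between the libraries and those of *Pcsk1n* did not.

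The rule counted UMIs, so it depended on depth. *Kit*-positive cells were 26.4% (23.9 to 29.0) of control germ cells and 23.1% (19.4 to 27.0) of Cnot3-cKO germ cells, shares whose intervals overlap. With *Kit* at 1 UMI or more the order turned, to 33.7% and 37.2%. With every germ cell thinned to 8000 UMIs before the rule was applied, 91 control and 24 Cnot3-cKO cells remained, 7.61% (6.17 to 9.26) and 4.77% (3.08 to 7.02). The median *Kit* count was 4 UMIs in both libraries, and the highest was 20 in control and 17 in Cnot3-cKO. Exactly 2 UMIs, the fewest the rule admitted, were found in 15.5% of the cells in control against 23.3% in Cnot3-cKO, and 10 or more in 9.18% and 6.03%.

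*Dmrtb1* shows where the limits of the rule fall. With 1 UMI of *Kit* (87 control and 71 Cnot3-cKO cells, outside the rule) *Dmrtb1* was at 21.5 and 10.9 CPM, and with 2 UMIs (49 and 27 cells, inside) at 42.2 and 31.2. At the *Meioc* limit, cells with 2 UMIs (31 and 13 cells, inside) had 76.8 and 81.1 CPM of *Dmrtb1*, and cells with 3 UMIs (12 and 10 cells, outside) 91.2 and 65.7. With 1 UMI of *Neurog3* and at least 2 of *Kit*, 51 control and 14 Cnot3-cKO cells were left out, and their *Stra8* level was 473 and 416 CPM.

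**Figure D2:**
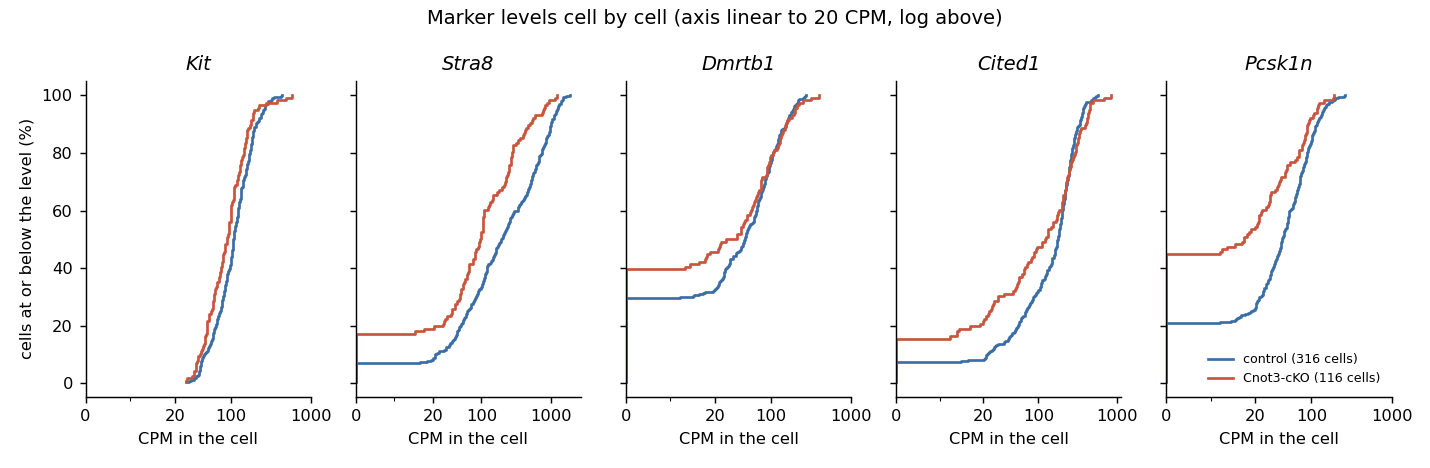
Cumulative share of *Kit*-positive cells (vertical axis, %) at or below a given level of each marker (horizontal axis, CPM within the cell, linear to 20 and logarithmic above) in control (blue, 316 cells) and Cnot3-cKO (red, 116 cells). The height at 0 is the share of cells with no UMI, which for *Pcsk1n* was larger in Cnot3-cKO, where 55.2% of cells had a UMI against 79.1% in control.

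The targeted transcript was reduced but present in the *Kit*-positive cells. *Cnot3* stood at 73.3 CPM in control against 46.9 in Cnot3-cKO, with a log2 ratio of -0.64 (-0.84 to -0.45). In stem-like cells it stood at 72.5 and 35.8 CPM, in *Neurog3*-positive cells at 72.6 and 38.0, and in *Meioc*-positive cells at 70.5 and 48.4. In Sertoli reference cells, chosen with no UMI of *Ddx4*, the gene that drives the Cre, *Cnot3* stood at 61.1 and 65.4. The 3′ counting used here does not tell transcripts of a deleted allele from those of an intact one. Within *Kit*-positive cells the ratio was -0.92 (-1.43 to -0.43) at 2 *Kit* UMIs, -0.83 (-1.19 to -0.48) at 3 or 4 and -0.42 (-0.70 to -0.14) at 5 or more, intervals that overlap.

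Genes were measured where the *Kit*-positive cells of both libraries together held 100 UMIs or more, and over these 9869 genes the median log2 ratio of Cnot3-cKO over control was 0.02, with 5% of genes below -0.44 and 5% above 0.60. A ratio of 1.5-fold or more was reached upward by 523 genes (5.3%) and downward by 200 genes (2.03%). These are counts of ratios between 1 library and 1 other, not of tested changes. A gene low in control could reach the limit of 100 UMIs through its Cnot3-cKO UMIs. Against this background, 0 of the 5 markers were 1.5-fold higher and 2 were 1.5-fold lower. The same shares, 5.3% and 2.03%, are the background for each 1.5-fold count of a list below.

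*Stra8* (ENSMUSG00000029848.11, chromosome 6, 34920163 to 34939344, plus strand) was the marker that differed most. It stood at 379 CPM in control (5384 UMIs) and 194 in Cnot3-cKO (1094 UMIs), a log2 ratio of -0.96 (-1.06 to -0.87). Its median count per cell was 8 UMIs in control and 4 in Cnot3-cKO, and the cells of the 2 libraries overlapped widely, from 0 to 101 UMIs in control and from 0 to 61 in Cnot3-cKO. The ratio was -1.65 (-1.93 to -1.38) in cells with 2 *Kit* UMIs, -0.65 (-0.80 to -0.50) with 3 or 4 and -0.97 (-1.11 to -0.84) with 5 or more, so *Stra8* was lower in Cnot3-cKO at each *Kit* level. Of the clusters described further on, the ratio was -0.04 (-0.28 to 0.20) in cluster 0 and 0.09 (-0.20 to 0.37) in cluster 4. It was below 0 in the others: -0.92 (-1.14 to -0.70) in cluster 1 and -1.30 (-1.47 to -1.15) in cluster 2. In clusters 3, 5 and 6 it was -0.44 (-0.86 to -0.04), -0.58 (-1.19 to -0.01) and -1.92 (-2.39 to -1.48). Clusters 1 and 2 held the most *Stra8*, and the libraries filled them unequally, with 76 control and 11 Cnot3-cKO cells in cluster 1 and 52 and 32 in cluster 2. The part of this in the pooled ratio was not tested. Outside the *Kit*-positive cells, *Stra8* stood at 69.0 CPM in control against 51.3 in Cnot3-cKO stem-like cells, at 175 and 256 in *Neurog3*-positive cells, and at 214 and 207 in *Meioc*-positive cells, so it was higher in Cnot3-cKO in the *Neurog3*-positive cells. In empty barcodes it stood at 46.5 and 20.9 CPM.

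*Pcsk1n* had a ratio of -0.63 (-0.87 to -0.39), and *Kit* itself -0.30 (-0.45 to -0.16). The ratios of *Dmrtb1*, -0.20 (-0.40 to -0.00), and *Cited1*, -0.17 (-0.29 to -0.06), depended on which cells were taken. In cells with at least 5 *Kit* UMIs, *Dmrtb1* stood at 65.4 CPM in control against 72.5 in Cnot3-cKO (0.15, -0.10 to 0.40) and *Cited1* at 194 and 224 (0.21, 0.07 to 0.35). *Pcsk1n* in those cells stood at 57.1 and 50.5 CPM (-0.17, -0.47 to 0.11). With the rule applied at 8000 UMIs per cell the ratios of *Kit*, *Dmrtb1* and *Cited1* were 0.02, 0.02 and 0.22, and without cells over the upper depth bound 0.16, 0.44 and 0.52, so the direction of these 3 markers depended on the selection. That of *Stra8* was negative under each alternative that gave a value, between -1.98 and -0.73.

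Among the germ cell lists, genes of the stem cell state differed most between the genotypes in the sums over all *Kit*-positive cells. Of the 21 genes of a list of stem cell and GDNF response genes, 9 had enough UMIs to be measured. Of these, 9 were at least 1.5-fold higher in Cnot3-cKO and 0 lower, beside 5.3% and 2.03% of all genes measured, and their median log2 ratio was 1.74 beside 0.02. The summed level of all 21 genes was 111 CPM in control against 347 in Cnot3-cKO. *Gfra1*, the GDNF co-receptor, stood at 6.40 CPM in control against 26.5 in Cnot3-cKO, with a log2 ratio of 2.05 (1.66 to 2.44). *Ret*, the signalling receptor that pairs with it, stood at 8.02 and 24.7 CPM (1.62, 1.255 to 1.99). *Id4*, an inhibitor of helix-loop-helix factors that marks stem cells, stood at 8.51 and 42.8 CPM (2.33, 2.01 to 2.66). *Nefm*, a neurofilament gene, stood at 9.43 and 58.1 CPM (2.62, 2.33 to 2.92). *Bcl6b* and *Dusp6*, a GDNF-induced repressor and a phosphatase that is switched on by ERK signalling, had log2 ratios of 1.86 and 1.74.

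Most of the named stem cell genes came from a minority of the *Kit*-positive cells. An exception, chosen after its values were seen, was *Mcam*, a cell adhesion molecule, at 39.3 and 86.5 CPM (1.14, 0.96 to 1.32), with UMIs in 74.1% of the cells in control against 89.7% in Cnot3-cKO. *Gfra1* had UMIs in 37 of 316 control cells (11.7%) and 32 of 116 Cnot3-cKO cells (27.6%), and *Nefm* in 38 and 33. In cluster 2 lay 75 of the 91 *Gfra1* UMIs in control and 129 of 149 in Cnot3-cKO. For *Id4* the counts there were 84 of 121 and 214 of 241. By genotype, 52 cells (16.5%) from control fell in that cluster, against 32 (27.6%) from Cnot3-cKO. Within it the ratio of *Gfra1* was 1.47 (1.05 to 1.90), of *Id4* 2.04 (1.67 to 2.42) and of *Ret* 0.81 (0.39 to 1.22). The part of this unequal filling in the pooled ratios was not tested. In cells with 2 *Kit* UMIs, *Gfra1* stood at 17.7 CPM in control against 61.5 in Cnot3-cKO, and *Id4* at 18.2 and 109. In cells with 3 or 4 *Kit* UMIs, *Gfra1* stood at 9.16 and 36.8 CPM. With 5 or more *Kit* UMIs, *Gfra1* stood at 1.48 and 3.13 CPM from 11 and 8 UMIs (1.08, -0.44 to 2.53), and *Id4* at 2.29 and 4.31. There the intervals of the *Gfra1*, *Id4* and *Nefm* ratios include 0, whereas that of *Ret*, at 2.02 and 9.01 CPM from 15 and 23 UMIs, does not (2.16, 1.16 to 3.20). For comparison, stem-like cells had *Gfra1* at 90.4 and 101 CPM and *Id4* at 111 and 168. *Ccnd2*, a D-type cyclin, was higher in stem-like cells, at 483 and 391 CPM, than in *Kit*-positive cells. In the latter it stood at 313 and 375 CPM with 2 *Kit* UMIs, 131 and 292 with 3 or 4, and 89.9 and 94.8 with 5 or more. With the rule applied at 8000 UMIs, which left 24 Cnot3-cKO cells, *Ccnd2* had a ratio of -0.20 and *Ret* of -0.32.

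**Figure D3:**
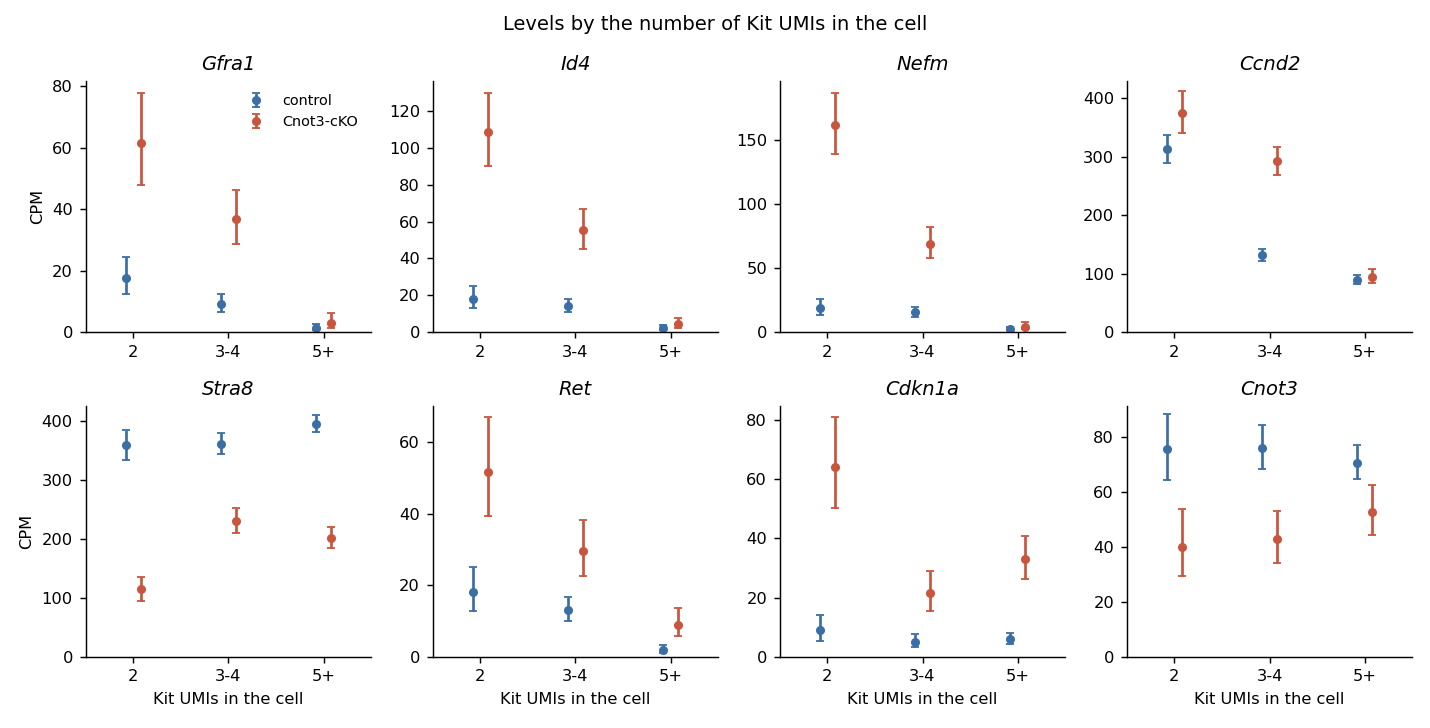
Level (CPM) of 8 genes in *Kit*-positive cells with 2, 3 or 4, and 5 or more *Kit* UMIs, blue for control (49, 110 and 157 cells) and red for Cnot3-cKO (27, 40 and 49 cells), with exact Poisson intervals. *Gfra1*, *Id4* and *Nefm* stood apart between genotypes at 2 to 4 *Kit* UMIs and were below 5 CPM in both at 5 or more, while *Stra8* was lower and *Cdkn1a* and *Ret* higher in Cnot3-cKO in each bin.

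Of 17 genes known to act in differentiating spermatogonia, 3 were at least 1.5-fold higher and 2 lower in Cnot3-cKO, with a median of -0.06. The 2 lower genes were *Stra8* and *Pcsk1n*. The 3 higher genes were *Ccnd2* (136 and 219 CPM, 0.69), which is on this list although its level was higher in stem-like cells, *Rec8*, a meiotic cohesin and retinoic acid target (9.36 and 15.1 CPM, 0.69, 0.28 to 1.09), and *Prss50*, a testis protease gene (7.04 and 11.4 CPM, 0.69, 0.22 to 1.16). *Rec8* turned to -0.45 without cells over the upper depth bound. *Ly6k*, a GPI-anchored surface protein, stood at 13.6 and 18.3 CPM (0.42, 0.06 to 0.77). In cells with 5 or more *Kit* UMIs, *Ly6k* stood at 14.1 and 24.7 CPM (0.81, 0.33 to 1.27) and *Prss50* at 4.84 and 12.9 (1.42, 0.69 to 2.14), whereas *Rec8* stood at 9.82 and 10.6 (0.11, -0.59 to 0.76).

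Of 26 retinoid genes, 16 were measured; 1 was 1.5-fold higher and 2 lower, with a median of -0.14. *Stra8*, described above, was among the lower genes. *Crabp1*, a retinoic acid carrier, was one of the most abundant genes of the list, at 393 and 319 CPM (-0.30, -0.38 to -0.22). *Aldh1a1*, a retinoic acid synthesising enzyme best known in Sertoli cells, stood at 17.8 and 26.6 CPM (0.58, 0.28 to 0.88), and in empty barcodes at 280 and 513. By the Sertoli estimate, which is the higher of the 2 made here, free RNA covers its whole Cnot3-cKO level, so no subtracted ratio is given.

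Of 37 genes of the KIT signalling pathway, 35 were measured, with a median of -0.05. Of these, 3 (8.57%) were 1.5-fold higher and 0 lower, beside 5.3% and 2.03% of all genes measured. *Kitl*, the ligand, is made by Sertoli cells, and it stood at 8.16 and 14.4 CPM (0.82, 0.39 to 1.24), seen in 45 control and 29 Cnot3-cKO cells and at 91.3 and 177 CPM in empty barcodes. Its ratio was 0.54 with the empty profile subtracted and -0.15 with the rule applied at 8000 UMIs. *Fyn*, a Src-family kinase, stood at 36.0 and 55.4 CPM (0.62, 0.41 to 0.83). Of the kinases downstream, *Akt1* stood at 58.9 and 40.1 CPM (-0.55, -0.77 to -0.34) and *Mapk3* (ERK1) at 32.8 and 49.0 (0.58, 0.36 to 0.80), opposite in sign.

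**Figure D4:**
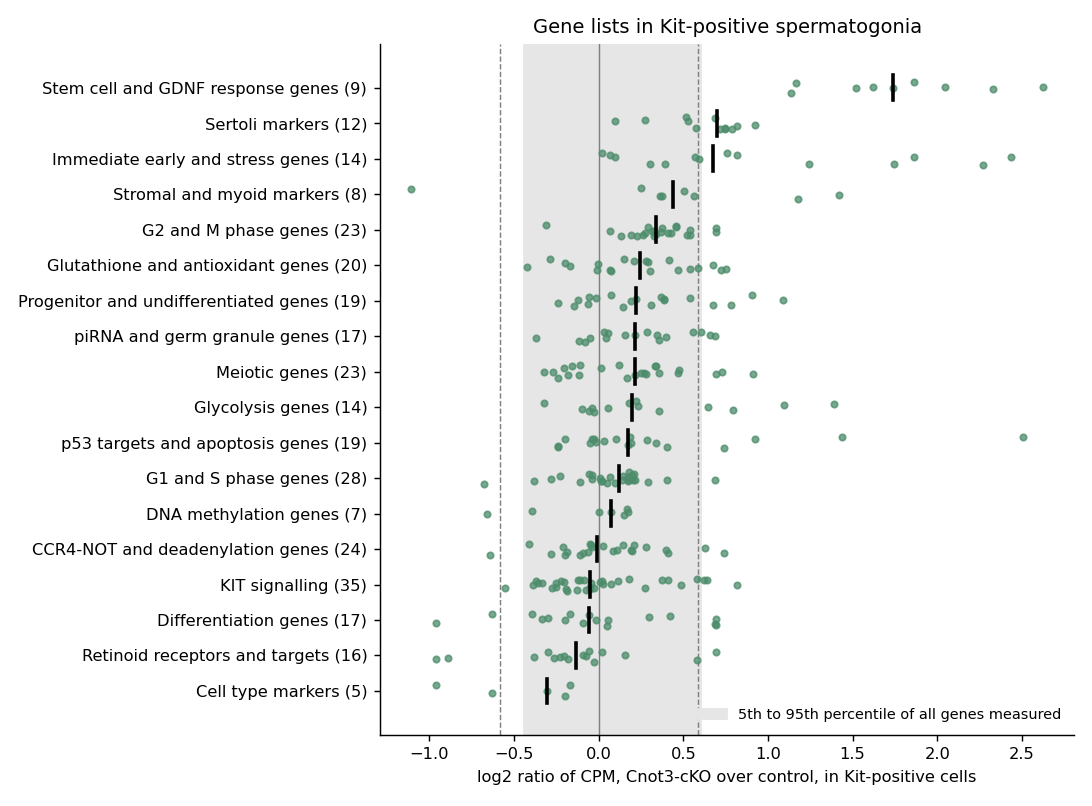
Log2 ratio of CPM in *Kit*-positive cells, Cnot3-cKO over control, for each gene measured in 18 lists (1 dot a gene, black bars the list medians, number of genes in brackets). The grey band runs from the 5th to the 95th percentile of all genes measured, -0.44 to 0.60, and dashed lines mark 1.5-fold. The 9 measured genes of the 21 in the stem cell list lie wholly to the right of the right-hand dashed line. Some of these reached the limit of 100 UMIs only with their Cnot3-cKO UMIs.

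The list of progenitor and undifferentiated genes held 19 measured genes, of which 4 were 1.5-fold higher and 0 lower, with a median of 0.22. *Egr4*, a transcription factor of undifferentiated cells, stood at 53.5 and 92.0 CPM (0.78, 0.62 to 0.95), and *Ddit4*, an inhibitor of mTORC1, at 5.35 and 11.4 (1.09, 0.59 to 1.59). *Cd9*, one of the proteins used for the sort, stood at 75.1 and 120 CPM (0.67, 0.53 to 0.81), and *Epcam*, an adhesion molecule of spermatogonia, at 184 and 268 (0.54, 0.45 to 0.63). *Zbtb16* (PLZF), the classical gene of undifferentiated spermatogonia, stood at 45.1 and 44.6 CPM (-0.02, -0.23 to 0.20) and was chosen after its value was seen.

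Meiotic genes were already detected in both libraries. Of 23 measured, 3 were 1.5-fold higher and 0 lower in Cnot3-cKO, with a median of 0.21. *Mei1*, needed for meiotic DNA breaks, stood at 7.74 and 14.6 CPM (0.91, 0.48 to 1.34), *Hormad1*, an axis protein, at 37.4 and 61.8 (0.73, 0.53 to 0.92), and *Smc1b*, a meiotic cohesin, at 364 and 504 (0.47, 0.40 to 0.54). Of 17 piRNA and germ granule genes, 3 were 1.5-fold higher and 0 lower, with a median of 0.22. Among them, *Gtsf1*, a piRNA factor, stood at 122 and 186 CPM (0.61, 0.49 to 0.72) and *Henmt1*, the piRNA methyltransferase, at 26.4 and 41.6 (0.66, 0.41 to 0.90).

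Among 24 measured genes of CCR4-NOT and mRNA decay, *Cnot3* was the 1 gene that was 1.5-fold lower, and 2 were higher, with a median of -0.01. *Cnot2*, whose product pairs with CNOT3 in the complex, stood at 46.0 and 71.1 CPM (0.63, 0.44 to 0.81), and *Btg2*, an antiproliferative adaptor of the complex, at 29.6 and 49.4 (0.74, 0.51 to 0.96). *Btg2* stood at 125 and 214 CPM in empty barcodes, and its ratio was 0.73 with the empty profile subtracted. The deadenylase gene *Cnot6* stood at 62.1 and 46.7 CPM (-0.41, -0.62 to -0.21).

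*Cdkn1a*, the cell cycle inhibitor p21 and a p53 target, differed as much as the stem cell genes but in cells of every *Kit* level. It stood at 6.19 CPM in control against 35.2 in Cnot3-cKO (2.51, 2.14 to 2.89), with UMIs in 59 of 316 and 57 of 116 cells. At 2 *Kit* UMIs 1 Cnot3-cKO cell held 42 of the 72 UMIs, and without the top cell of each library the ratio in that bin was 2.04 (1.08 to 3.07). With all cells the ratio was 2.82 (2.07 to 3.63) at 2 *Kit* UMIs, 2.07 (1.31 to 2.86) at 3 or 4 and 2.44 (1.90 to 2.998) at 5 or more. *Cdkn1a* was also higher in Cnot3-cKO stem-like cells, at 10.6 and 40.6 CPM, and *Neurog3*-positive cells, at 4.00 and 23.0. In *Meioc*-positive cells it stood at 18.2 and 40.7 CPM, with a smaller ratio (1.16, 0.67 to 1.66). It was lower in Cnot3-cKO in Sertoli reference cells, at 2.76 and 0.409. Of 19 measured p53 targets and apoptosis genes, 4 were 1.5-fold higher and 0 lower, with a median of 0.17, beside 5.3% and 2.03% of all genes measured. The other 3 were *Ccng1*, cyclin G1 (102 and 194 CPM, 0.92, 0.81 to 1.04), *Pmaip1*, the BH3-only protein NOXA (4.01 and 10.8 CPM, 1.43, 0.89 to 1.98), and *Sesn2*, a stress-responsive regulator of mTORC1 (8.94 and 14.9 CPM, 0.74, 0.32 to 1.15). *Bax* stood at 395 and 387 CPM (-0.03, -0.10 to 0.04) and *Mdm2* at 73.1 and 78.3 (0.10, -0.06 to 0.26), both chosen after their values were seen. Over the list, 8 genes had an interval above 0 and 1 below, beside 2050 and 1598 of all 9869 genes measured.

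Of 20 measured glutathione and antioxidant genes, 4 were 1.5-fold higher and 0 lower, with a median of 0.24. *Mt1*, a metal-binding metallothionein, stood at 748 and 1192 CPM (0.67, 0.63 to 0.72), and its ratio ran from 0.85 at 2 *Kit* UMIs to 0.44 (0.37 to 0.51) at 5 or more. The glutathione transferases *Gsta4* and *Gstm1* stood at 71.2 and 103 CPM (0.54, 0.39 to 0.69) and at 60.3 and 83.3 CPM (0.47, 0.30 to 0.63). *Gstm1* stood at 657 and 1053 CPM in empty barcodes, and its ratio was 0.03 with the empty profile subtracted at the Sertoli estimate, the higher estimate of free RNA. Over the alternatives run, the *Gstm1* ratio ran from -0.535 to 0.818 and the list median from -0.101 to 0.384. The direction of both thus depended on the alternative, while the *Mt1* and *Gsta4* ratios stayed positive.

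Of 23 genes of the G2 and M phases, 22 had a ratio above 0 and 21 an interval above 0, beside 5166 and 2050 of all 9869 genes measured. The median was 0.34 and 2 genes reached 1.5-fold. Those 2 were *Aurka*, a spindle kinase (30.1 and 48.7 CPM, 0.69, 0.47 to 0.91), and *Cdc20*, an activator of the anaphase-promoting complex (174 and 282 CPM, 0.69, 0.60 to 0.79). *Ube2c*, its ubiquitin-conjugating enzyme, stood at 147 and 214 CPM (0.54, 0.44 to 0.64). Of 28 measured G1 and S phase genes, 20 had a ratio above 0, 1 (*Ccnd2*) was 1.5-fold higher and 1 lower, with a median of 0.12. The lower gene was *Cdk6*, a partner of D-type cyclins, at 50.02 and 31.3 CPM (-0.68, -0.92 to -0.44), and *Cdt1*, which licenses replication origins, stood at 64.6 and 85.3 (0.40, 0.24 to 0.56). Of 7 measured DNA methylation genes, 0 were 1.5-fold higher and 1 lower: *Tet3*, a 5-methylcytosine oxidase, at 67.3 and 42.6 CPM (-0.66, -0.87 to -0.45). *Dnmt3b*, the de novo methyltransferase of differentiating spermatogonia, stood at 122 and 92.7 CPM (-0.40, -0.54 to -0.25). Of 14 measured glycolysis genes, 4 were 1.5-fold higher and 0 lower, among them *Ldha* (8.65 and 18.5 CPM, 1.09, 0.70 to 1.48) and *Pfkp* (3.66 and 9.59 CPM, 1.39, 0.81 to 1.97).

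Of 14 measured immediate early and stress genes, 8 were 1.5-fold higher and 0 lower, with a median of 0.67. *Fos* and *Junb*, of the AP-1 transcription factor, stood at 9.92 and 33.2 CPM (1.74, 1.42 to 2.07) and at 6.89 and 25.05 CPM (1.86, 1.48 to 2.25). Cluster 6, described further on, had 16 control and 10 Cnot3-cKO cells. It held 54 of 141 *Fos* UMIs in control and 82 of 187 in Cnot3-cKO, and 28 of 98 and 48 of 141 *Junb* UMIs. In empty barcodes *Fos* stood at 125 and 422 CPM and *Junb* at 122 and 321, and in Sertoli reference cells *Fos* stood at 199 and 319. With the empty profile subtracted the *Fos* ratio was 1.74, although by the Sertoli estimate free RNA makes up most of its level in both libraries. By the same estimate free RNA covers the whole control level of *Junb*, so no subtracted ratio is given. The stromal estimate of free RNA was lower, at 2.28% in control and 2.94% in Cnot3-cKO. *Egr1*, a growth factor-induced transcription factor, stood at 25.8 and 61.1 CPM (1.24, 1.03 to 1.46), and *Ier3*, an immediate early survival gene, at 2.53 and 13.7 (2.43, 1.84 to 3.05). In empty barcodes *Egr1* stood at 257 and 578 CPM and *Ier3* at 13.3 and 14.1, and in Sertoli reference cells *Ier3* stood at 19.2 and 13.6. *Hspa1a*, the inducible HSP70, rested on 1 cell: it stood at 3.80 and 18.3 CPM (2.27), but 72 of its 103 Cnot3-cKO UMIs came from 1 cell, and without the top cell of each library the ratio was 0.60 (-0.09 to 1.27).

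Markers of other cell types were checked in the *Kit*-positive cells. Sertoli markers summed to 461 CPM in control against 708 in Cnot3-cKO, and of 12 measured 7 were 1.5-fold higher and 0 lower, with a median of 0.70. *Defb19*, a Sertoli cell defensin, stood at 19.98 and 37.8 CPM (0.92, 0.66 to 1.18) and *Cst12*, a cystatin, at 37.4 and 62.9 (0.75, 0.55 to 0.95), and in empty barcodes *Cst12* stood at 806 and 1015. With the rule applied at 8000 UMIs the *Cst12* ratio was -0.21. The part of these UMIs in the other genotype ratios was not tested beyond the alternatives given. The 5 Sertoli genes of the rule made up 0.270% of empty-barcode UMIs in control and 0.420% in Cnot3-cKO. Stromal and myoid markers summed to 205 and 285 CPM; of 8 measured, 2 were higher and 1 lower, and *Dcn*, a stromal proteoglycan, stood at 18.2 and 41.2 CPM (1.18, 0.92 to 1.44) but had a ratio of -0.01 without the Scrublet doublets. Macrophage markers summed to 66.8 and 4.80 CPM, and all 3 measured were lower in Cnot3-cKO, on the 3 control cells named above. Leydig markers summed to 2.88 and 2.66 CPM, endothelial markers to 3.24 and 8.35, erythroid and T cell markers to 3.94 and 6.57, and mast cell markers to 0 and 0.178, with none of these measured. Without cells of somatic-led clusters or with macrophage RNA (50 control and 17 Cnot3-cKO cells), *Stra8* had a ratio of -0.96, *Gfra1* of 2.05 and the stem cell list a median of 1.82.

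The 12 genes with the highest lower limit of the ratio were *Gm31763*, *Nefm*, *Cdkn1a*, *Optn*, *Id4*, *Hist1h1b*, *Ier3*, *Hspa1a*, *Ptpn13*, *Gfra1*, *Junb* and *Fos*. *Optn*, an autophagy receptor, stood at 2.74 and 17.2 CPM (2.65, 2.10 to 3.23), *Ptpn13*, a phosphatase, at 3.87 and 17.6 (2.18, 1.69 to 2.69; -0.17 with the rule applied at 8000 UMIs), and *Hist1h1b*, a linker histone of S phase, at 6.33 and 31.4 (2.31, 1.94 to 2.69). *Gm31763* stood at 0.141 and 31.3 CPM, from 2 UMIs in 2 control cells and 176 UMIs in 6 Cnot3-cKO cells, of which 1 cell held 98. The 12 genes with the lowest upper limit were *C1qb*, *C1qc*, *C1qa*, *Pf4*, *Tyrobp*, *Dqx1*, *Lyz2*, *Tmsb4x*, *Apoe*, *Clasrp*, *Dab2* and *Fcer1g*. Of these, *C1qa*, *C1qb*, *C1qc*, *Pf4*, *Lyz2* and *Tyrobp* came from the 3 cells named above. *Tmsb4x* and *Apoe* had UMIs in larger shares of Cnot3-cKO cells, 73.3% and 46.6%, than of control cells, 67.4% and 36.4%, and 1 control cell held 863 of 2345 *Tmsb4x* UMIs and 1 held 418 of 1256 *Apoe* UMIs. *Clasrp*, a splicing-related gene, had UMIs in 294 of 316 control cells and in 75 of 116 from Cnot3-cKO, at 72.4 and 31.3 CPM (-1.21, -1.45 to -0.98), and it was also lower in empty barcodes, at 61.5 and 32.5 CPM. Sertoli reference cells showed the same direction, at 44.2 and 21.3 CPM (-1.05, -1.23 to -0.88), as did stem-like, *Neurog3*-positive and *Meioc*-positive cells. *Dqx1*, a putative helicase gene, stood at 12.7 and 0.355 CPM, from 180 UMIs in 18 control cells and 2 UMIs in 2 Cnot3-cKO cells.

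Set beside the stem-like cells of the same library, 212 of 8992 genes (2.36%) were at least 2-fold higher in *Kit*-positive cells in both libraries and 243 (2.7%) at least 2-fold lower. Since UMI counts of these cells chose both groups, this is a description. Among the highest beside *Kit*, *Tbx1*, a T-box factor, stood at 0.699 and 30.7 CPM in control stem-like and *Kit*-positive cells and at 0.688 and 24.5 in Cnot3-cKO. *Lmo1*, a LIM-domain cofactor, stood at 12.9 and 116 CPM in control and at 9.21 and 112 in Cnot3-cKO, and *Gal*, the neuropeptide galanin, at 0.838 and 15.8 and at 1.79 and 20.4. The other high genes by the same rule were *Dmrtb1*, *Pcsk1n*, *Cited1*, *Ly6k*, *Gnai1*, *Nexmif*, *Esx1* and *Tcea3*. *Foxc2*, a forkhead factor of stem spermatogonia, was the lowest: it stood at 58.0 and 2.46 CPM in control stem-like and *Kit*-positive cells (-4.56) and at 58.9 and 9.95 in Cnot3-cKO (-2.56). The difference between stem-like and *Kit*-positive cells was smaller in Cnot3-cKO for each of the 12 lowest genes, which also include *Egr2*, *Id4*, *Gfpt2*, *Tcl1*, *Lhx1*, *Gfra1*, *Ret*, *Pdzd2*, *Nefm*, *Dusp6* and *Foxf1*. Over the 13 measured stem cell genes the median of this ratio was -3.41 in control and -1.91 in Cnot3-cKO, and over the 16 measured differentiation genes 2.01 and 1.61. These ratios share the *Kit*-positive sums with the genotype ratios above and are no separate evidence.

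By abundance the *Kit*-positive cells of both libraries together were led by mitochondrial and ribosomal protein genes. The 10 genes with the most UMIs included 6 mitochondrial genes, led by *mt-Atp6* (21238 and 20430 CPM) and *mt-Co3* (20757 and 20414 CPM). Of the rest, *Rpl13* stood at 4928 and 4964 CPM, whereas *Rps2* stood at 5476 and 4372 (-0.32, -0.35 to -0.30). *mt-Cytb* was also lower in Cnot3-cKO, at 7267 and 6131 CPM (-0.25, -0.26 to -0.23). At a common depth of 8000 UMIs, the variance over the mean across cells, which is 1 for counts that vary by sampling alone, had a median of 1.06 in control and 1.09 in Cnot3-cKO over 5155 genes. *Olfr655*, an olfactory receptor gene, was among the highest, at 13.1 and 11.05, with UMIs in 30 control and 10 Cnot3-cKO cells and up to 34 and 18 UMIs in 1 thinned cell. *Malat1*, a nuclear noncoding RNA, had 9.16 and 13.2, and *Mirt1*, another noncoding RNA, 12.3 and 9.04, with UMIs in 15 and 6 cells. *Ccnd2* had 3.97 and 4.52, seen in 32.6% and 48.3% of thinned cells.

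Clustering the *Kit*-positive cells, with each gene centred within its library, gave 7 clusters, each with cells of both libraries. The leading genes of a cluster define it and are given as a description. Cluster 1 (87 cells) was led in part by *Stra8* and had *Stra8* at 620 CPM and *Dmrtb1* at 20.7. Cluster 3 (60 cells) was led by *Prss50*, *Esx1* and *Ly6k*, with *Stra8* at 102 CPM and *Dmrtb1* at 119, so the markers of the label were not high in the same cells. Cluster 0 (88 cells) was led in part by the linker and core histone genes *Hist1h1c*, *Hist1h1a* and *Hist1h2ab*. Cluster 4 (49 cells) was led by the mitotic genes *Plk1*, *Aurka* and *Ube2c*, with *Pcsk1n* at 93.2 CPM.

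The other 3 clusters went in part against the label. Cluster 2 (84 cells) was led by *C1qb*, *Pf4* and other macrophage genes of the 3 cells named above and by *Nefm*, *Tcl1*, *Gfra1* and *Id4*. It had *Gfra1* at 46.0 CPM, *Ccnd2* at 439, *Stra8* at 453 and *Dmrtb1* at 8.35. Cluster 5 (38 cells) was led by the stromal genes *Bgn*, *Dcn* and *Tcf21*. Cluster 6 (26 cells) was led by Sertoli genes such as *Amh*, *Rhox8* and *Sox9*, with *Cst12* at 463 CPM, and Scrublet marked 24 of its 26 cells as doublets. No cluster was given a cell type name.

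**Figure D5:**
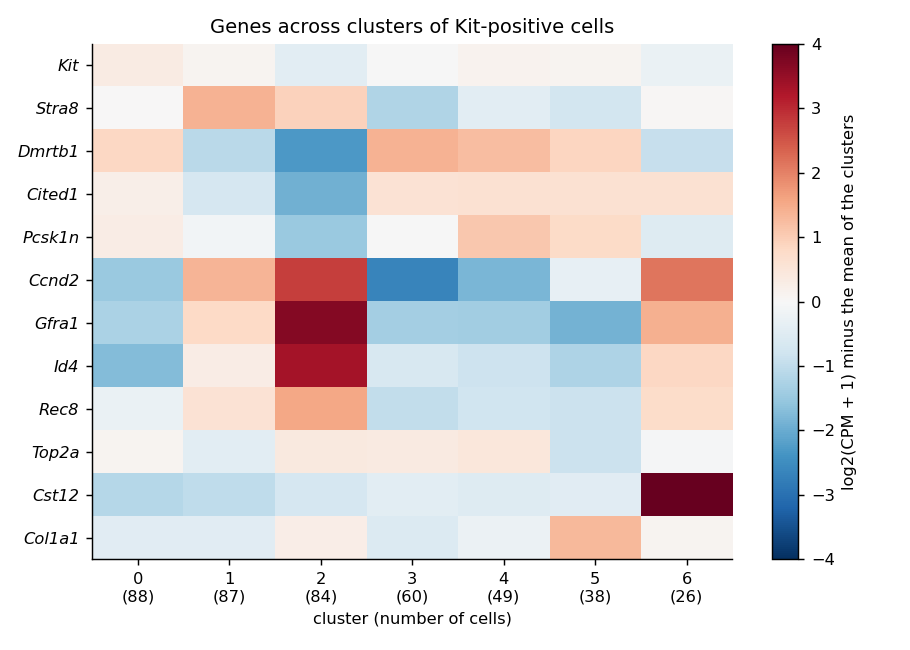
Level of 12 genes in the 7 clusters of *Kit*-positive cells (columns, with the number of cells), as log2(CPM + 1) minus the mean over clusters, red above and blue below that mean. *Gfra1* and *Id4* are high in cluster 2, *Stra8* in clusters 1 and 2, *Dmrtb1* in clusters 0, 3, 4 and 5, and *Cst12* in cluster 6.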

How the data were processed

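The authors sequenced 10x Genomics 3′ libraries and deposited, per genotype, raw UMI counts per gene and barcode from Cell Ranger 3.0.1 (mm10), with both labelled samples of a genotype merged and no cells called. The deposited counts were used as they are. Barcodes were selected by the thresholds in the report, and UMIs were summed per library and cell group and given as CPM. Intervals are exact (95%): Poisson for CPM, conditional binomial for ratios, Clopper-Pearson for shares. A gene was measured where the selected cells held 100 UMIs or more in all. Libraries held 181550221 and 168770743 UMIs. With 1 library per genotype no test was run. The members and gene lists were chosen with earlier results of these data known. Named genes are the markers, in each list up to 6 genes whose interval excludes 0 (largest ratio first, then those with the most UMIs), *Cnot3* and *Kitl* for their roles, the 12 extremes in each direction of either comparison, the 10 most abundant, the 10 most variable and up to 6 leading genes per cluster; *Zbtb16*, *Bax*, *Mdm2*, *Mcam* and the comment on *Ccnd2* variation were added after their values were seen. Doublets were marked with Scrublet in scanpy 1.11.5 and kept. Cells were clustered with leidenalg 0.10.2 (resolution 0.5, 2000 variable genes, 20 components, 15 neighbours). Coordinates are from GENCODE M21, matched for 30766 identifiers (99.8%). Calculations used Python 3.11.15, numpy 2.4.6 and scipy 1.17.1. They were tested on simulated independent Poisson counts, a test that does not cover genes whose UMIs lie in few cells. Alternatives changed the *Kit*, *Meioc*, mitochondrial, depth and gene limits, doublets, free RNA and clustering. The sequencing runs of a genotype cannot be told apart. Some genes that the naming rule covers are not reported here.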

Additional observations from a re-analysis of the deposited data

How the results depend on the processing

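With *Kit* at 1 UMI or more, *Kit*-positive shares of germ cells were 33.7% in control and 37.2% in Cnot3-cKO, an order opposite to that reported, 792 genes were past 1.5-fold higher, the log2 ratios of *Kit*, *Dmrtb1*, *Cited1* and *Pcsk1n* were -0.55, -0.50, -0.40 and -0.87, and the medians of the Differentiation genes and the Stem cell and GDNF response genes were -0.21 and 1.496. With *Kit* at 3 or more, the share values were 22.3% and 17.7%, *Stra8* -0.84 and Differentiation genes -0.0004. With *Kit* at 5 or more, chosen after seeing the data, the share values were 13.1% and 9.74%, 277 genes were past 1.5-fold higher, *Dmrtb1*, *Cited1* and *Pcsk1n* were 0.15, 0.21 and -0.17, and Differentiation genes 0.0914. With a 10% mitochondrial limit, the control share was 33.8%, *Stra8*, *Dmrtb1* and *Cited1* -0.73, -0.43 and -0.36, and Differentiation genes -0.19. With the rule applied at 8000 UMIs, the share values were 7.61% and 4.77%, 261 and 303 genes were past 1.5-fold higher and lower, *Kit*, *Stra8*, *Dmrtb1*, *Cited1* and *Pcsk1n* were 0.024, -1.98, 0.0151, 0.22 and -0.89, Differentiation genes 0.0151, and 87 and 149 genes were past 2-fold higher and lower against stem-like cells. There *Ccnd2* (-0.20), *Kitl* (-0.15), *Ret* (-0.32), *Cst12* (-0.21) and *Ptpn13* (-0.17) turned direction, on fewer cells. Without cells over the upper depth bound, the share values were 23.7% and 17.1%, 486 genes were past 1.5-fold lower, *Kit*, *Stra8*, *Dmrtb1* and *Cited1* were 0.16, -1.60, 0.44 and 0.52, Differentiation genes 0.19, and *Rec8* turned to -0.45. With *Meioc* at 0, the share values were 17.1% and 15.1%, 366 genes were past 1.5-fold lower, *Dmrtb1*, *Cited1* and *Pcsk1n* were -0.58, -0.60 and -0.996, Differentiation genes -0.24 and Stem cell and GDNF response genes 2.10. Over genes with 400 or more UMIs, 127 and 61 were past 1.5-fold higher and lower and Differentiation genes stood at -0.13, and over genes with 1 UMI in each library 3442 and 1248. With free RNA subtracted, 313 were past 1.5-fold lower. Without Scrublet doublets, Stem cell and GDNF response genes stood at 1.91 and *Dcn* turned to -0.0145. Except where an alternative leaves fewer cells or genes by construction, the cause was not tested.

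Over the alternatives run, *Gfra1* stayed between 1.07 and 2.72, *Cdkn1a* between 2.26 and 3.08 and *Cnot3* between -0.78 and -0.24. Leaving out somatic-led clusters or the top cell of each gene (also within *Kit* levels) was also chosen after seeing the data. Leaving out a replicate could not be run, because each genotype is 1 library. No paired analysis was possible because the 2 samples of a genotype are merged in 1 matrix with no map from barcodes to samples. Counting error limits genes with few UMIs.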
